A study of Mus musculus with 37 samples.

Results

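Brown fat genes were followed in mammary gland RNA through Ucp1, Cidea, Elovl3, Dio2, Cpt1b, Ppargc1a, Prdm16 and Fabp3. A gene was read from a probe set annotated to exactly 1 gene symbol, and where a gene had several such probe sets from the one with the highest mean over the arrays. This gave values for 7 of the 8 genes, out of 19937 genes measured in the same way, and all 7 were among the 16865 genes high enough to test. The only probe set of Cpt1b, the mitochondrial entry enzyme for long-chain fatty acids, carries 2 symbols, so no value is given for it.

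The series holds 37 arrays of total mammary RNA from FVB mice that lack the tyrosine phosphatase PTP1B, encoded by Ptpn1 (KO, 19 arrays), or carry it (WT, 18 arrays). The KO line was bred onto FVB by repeated backcrossing, the labels name no tissue-limited deletion, and females were mated at 12 weeks of age. There were 4 KO and 4 WT arrays from nulliparous females in oestrus (P0), 3 and 3 at pregnancy day 3 (P3), 5 and 4 at day 7 (P7), 3 and 3 at day 10 (P10) and 4 and 4 at day 15 (P15). Values are log2 intensities, so a difference of 1 is a doubling, and they compare arrays for 1 probe set and not 1 gene with another.

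Ptpn1 lay between 7.90 and 9.06 in WT arrays and between 5.36 and 6.49 in KO arrays, except for the array labelled KO P15 replicate 3, which was at 8.68. Skeletal muscle markers stood high in WT P0 replicate 4, KO P3 replicate 1 and KO P7 replicate 3, and lymphocyte markers in WT P7 replicate 1, KO P10 replicate 2 and KO P10 replicate 3. These 7 arrays are called the arrays in doubt, and results were also computed without them. Array medians ran from 6.52 to 6.79. The labels do not say whether replicates came from separate animals, so every p-value measures the spread between these samples.

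Brown and beige adipocytes burn fatty acids to make heat. Sympathetic signals raise cyclic AMP in these cells, which frees fatty acids and induces Ucp1, the protein that lets protons leak across the inner mitochondrial membrane. Dio2 raises thyroid hormone locally, Elovl3 lengthens fatty acids, Cidea sits on lipid droplets, Ppargc1a drives mitochondrial and thermogenic genes, and Prdm16 maintains the brown fat programme. Fabp3 carries fatty acids in the cytosol of heart, muscle and brown fat, and it is also made by the mammary epithelium, where it is known as mammary-derived growth inhibitor. The mouse mammary gland grows within a fat pad in which beige adipocytes can lie among white ones.

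Promoter windows are shown because cyclic AMP is a known inducer of several of the members, and any link to their levels in these arrays was not tested. RefSeq windows of the mouse build GRCm38.p6, from 250 bases before to 50 bases after the start of the gene, were at hand and can be printed for 5 of the 8 genes, and 4 of them hold TGACG or its reverse complement CGTCA, the core of the cyclic AMP response element. Those 4 are given 5′ to 3′ on the gene's strand, with that core in capitals.
Ucp1: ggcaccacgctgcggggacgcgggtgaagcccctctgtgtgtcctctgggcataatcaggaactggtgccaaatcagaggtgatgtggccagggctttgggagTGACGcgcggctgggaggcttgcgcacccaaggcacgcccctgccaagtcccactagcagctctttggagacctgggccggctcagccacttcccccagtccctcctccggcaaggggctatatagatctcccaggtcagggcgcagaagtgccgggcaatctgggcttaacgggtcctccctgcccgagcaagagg
Dio2: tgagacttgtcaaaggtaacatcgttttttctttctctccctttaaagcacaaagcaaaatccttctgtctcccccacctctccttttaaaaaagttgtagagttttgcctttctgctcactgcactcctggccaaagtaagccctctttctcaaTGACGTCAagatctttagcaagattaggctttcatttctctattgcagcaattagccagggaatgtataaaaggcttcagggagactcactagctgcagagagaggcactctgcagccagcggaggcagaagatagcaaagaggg
Ppargc1a: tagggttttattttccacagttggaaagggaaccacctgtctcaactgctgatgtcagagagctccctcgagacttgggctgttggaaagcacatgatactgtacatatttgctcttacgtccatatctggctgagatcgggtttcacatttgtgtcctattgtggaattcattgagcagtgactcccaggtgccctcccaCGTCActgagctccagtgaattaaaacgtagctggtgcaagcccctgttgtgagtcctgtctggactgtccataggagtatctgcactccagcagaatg
Fabp3: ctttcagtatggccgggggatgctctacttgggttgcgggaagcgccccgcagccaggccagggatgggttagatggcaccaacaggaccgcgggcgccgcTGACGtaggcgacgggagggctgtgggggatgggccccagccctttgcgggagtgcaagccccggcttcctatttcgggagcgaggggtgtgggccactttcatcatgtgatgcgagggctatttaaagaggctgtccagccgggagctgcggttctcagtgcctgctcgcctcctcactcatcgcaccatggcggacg

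The Ucp1 window lies at chr8:83290098-83290397 on the plus strand and holds the core at position -147 from the start. The Dio2 window, chr12:90738989-90739288 on the minus strand, holds at position -95 the whole palindrome TGACGTCA. The Ppargc1a window, chr5:51567676-51567975 on the minus strand, holds the core in reverse orientation at position -49, and the Fabp3 window, chr4:130308488-130308787 on the plus strand, at position -149. The Prdm16 window, chr4:154636824-154637123 on the minus strand, holds none. Of 32851 RefSeq promoters of the same length, 20.8% hold the core on either strand and 1.79% the palindrome, which contains the core on both strands. Of the other motifs searched on both strands, the nuclear receptor half-site AGGTCA was in the Ucp1 window at position -14 and in 16.3% of all promoters. The oestrogen-related receptor element TCAAGGTCA (0.423% of all promoters) and the MEF2 consensus site (3.69%) were in none of the 5 windows. These matches describe the letters of the windows and were not tested for any binding.

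Ucp1 ranged over 7.02 log2 units, from 5.73 in KO P7 replicate 2 to 12.76 in WT P0 replicate 1, a 130.1-fold span. Within most groups it was split between bright and dim arrays, so the groups are described array by array. At P0 Ucp1 was at 11.05, 10.97, 9.24 and 10.98 in KO arrays, against 12.76, 7.84, 11.84 and 12.37 in WT arrays. The single WT array at 7.84 lay below every KO array while the other WT arrays lay above them. At P3 it was at 9.56, 12.04 and 12.72 in KO arrays, against 12.21, 6.68 and 11.64 in WT arrays, again with 1 dim WT array. At P7 it was at 7.20, 5.73, 9.35, 10.37 and 10.34 in KO arrays, against 9.23, 12.05, 11.99 and 10.95 in WT arrays. The KO arrays at P7 spread over 4.64 log2 units and overlapped the WT arrays. At P10 it was at 8.54, 6.89 and 6.21 in KO arrays, against 10.67, 8.82 and 6.83 in WT arrays. At P15 it was at 7.67, 10.63, 10.26 and 7.72 in KO arrays, against 7.94, 7.20, 7.88 and 5.94 in WT arrays. The KO arrays at P15 fell in 2 pairs, of which the brighter holds the array whose Ptpn1 goes against its label.

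Ordered by mean, Ucp1 stood at 11.44 ± 1.67 in KO P3 (SD, n = 3), 11.20 ± 2.27 in WT P0 (n = 4), 11.06 ± 1.32 in WT P7 (n = 4), 10.56 ± 0.88 in KO P0 (n = 4) and 10.17 ± 3.04 in WT P3 (n = 3). It then stood at 9.07 ± 1.60 in KO P15 (n = 4), 8.77 ± 1.92 in WT P10 (n = 3), 8.60 ± 2.06 in KO P7 (n = 5), 7.24 ± 0.93 in WT P15 (n = 4) and 7.21 ± 1.20 in KO P10 (n = 3). No step between neighbours in this order was larger than the larger SD of the 2 groups, so neighbouring groups could not be told apart beyond their spread.

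**Figure D1:**
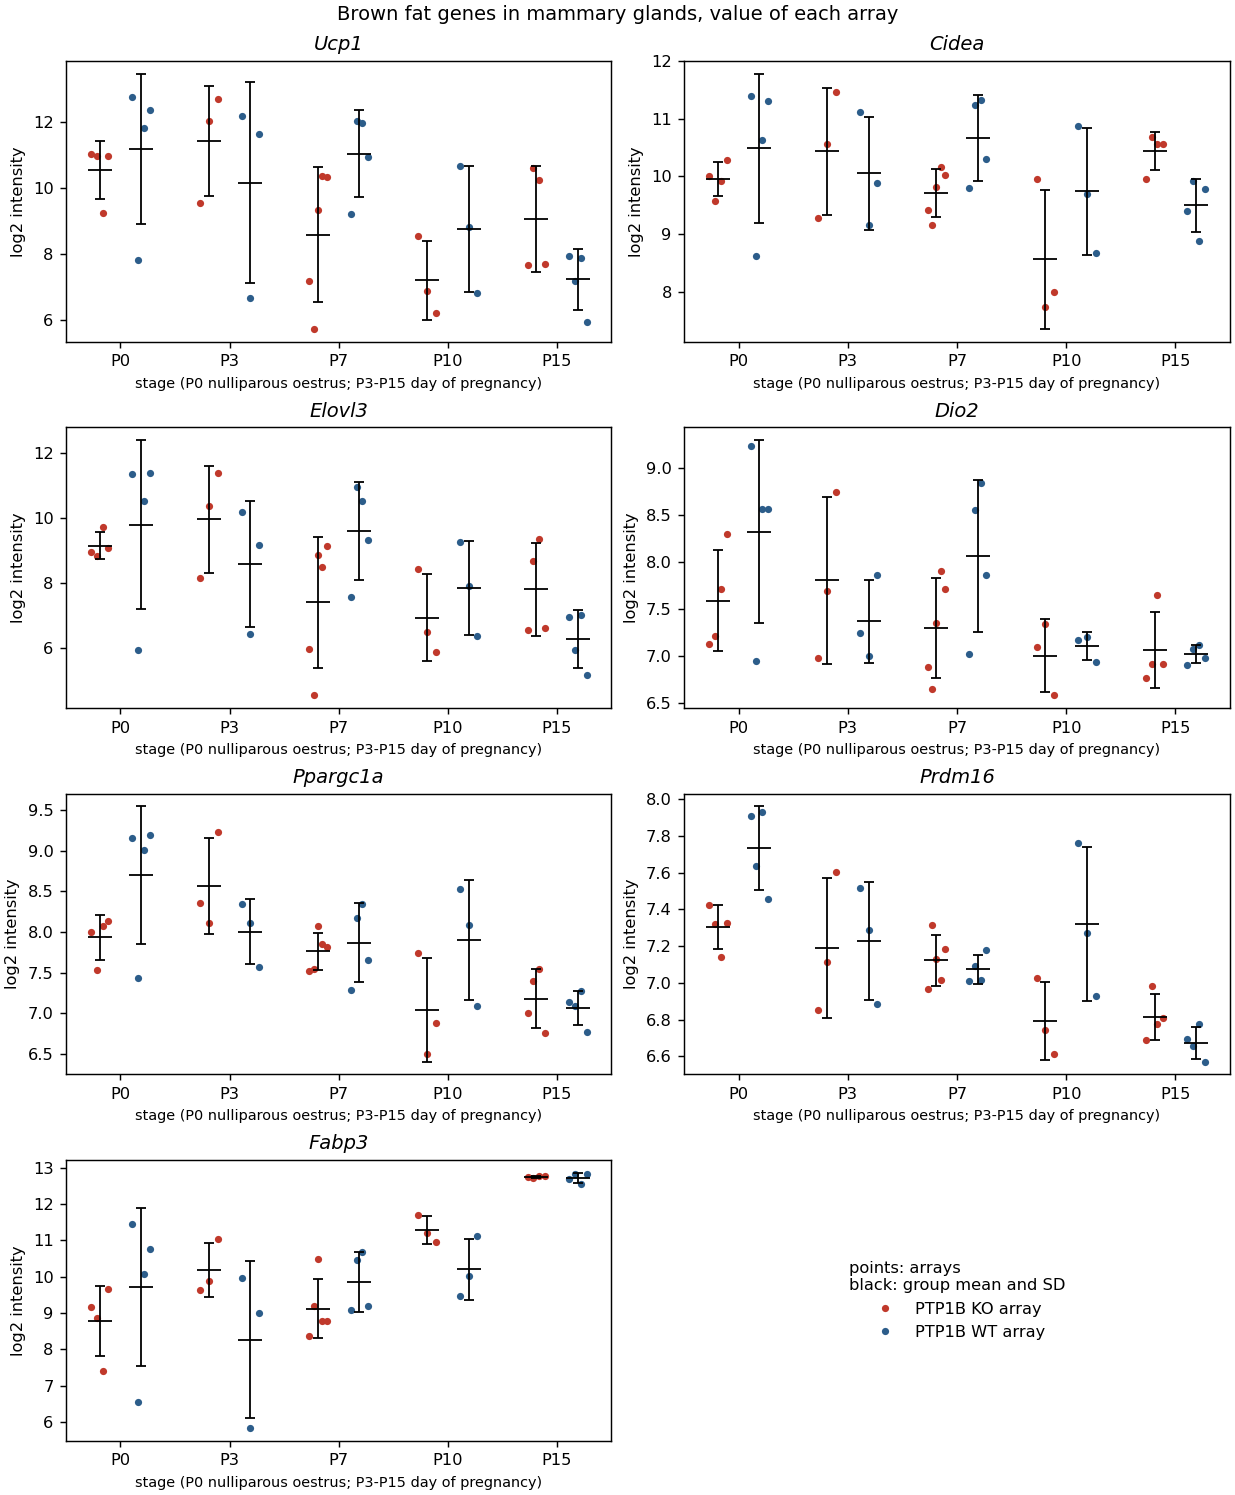
Log2 intensity (vertical axes) of 7 brown fat genes by stage (horizontal axes), with 1 point per array, KO in red left of WT in blue, and group means with SD bars in black. Ucp1 and Elovl3 scatter over several log2 units within groups at P0 to P10, while Fabp3 narrows to between 12.55 and 12.84 at P15.

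The spread between replicates was the leading feature of these genes. The SD within groups, pooled over the 10 groups, was 1.77 for Ucp1, which ranked 1 of 16865 genes from the top, and 1.65 for Elovl3, which ranked 2. The median gene had an SD of 0.155. Fabp3 followed with 1.12 (rank 32), Cidea with 0.825 (rank 88), Dio2 with 0.598 (rank 281) and Ppargc1a with 0.499 (rank 509). Prdm16 was the steady member, with 0.219 (rank 4344). One SD corresponds to a 3.41-fold difference for Ucp1 and a 1.16-fold difference for Prdm16.

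The next genes in that ranking were Atp2a1 (1.59), the calcium pump of fast muscle, Glycam1 (1.56), a milk mucin, and Pvalb (1.53), the calcium buffer of fast muscle. Muscle genes were high in the 3 muscle-rich arrays named above, and without the 7 arrays in doubt the SD of Ucp1 was 1.84 and that of Elovl3 1.59. Among the lists of markers, the median SD was 0.408 over 31 other brown identity and thermogenic genes, of which 6 were in the top 1% of all genes, and 0.338 over 19 genes of fatty acid oxidation (1 in the top 1%). It was higher over 26 skeletal muscle genes (1.13, 19 in the top 1%), 10 lymphocyte genes (0.737, 6 in the top 1%) and 15 secretory epithelium genes (0.484, 5 in the top 1%). It was 0.307 over 17 pan-epithelial genes, 0.226 over 10 endothelial genes and 0.218 over 18 white adipocyte genes.

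**Figure D2:**
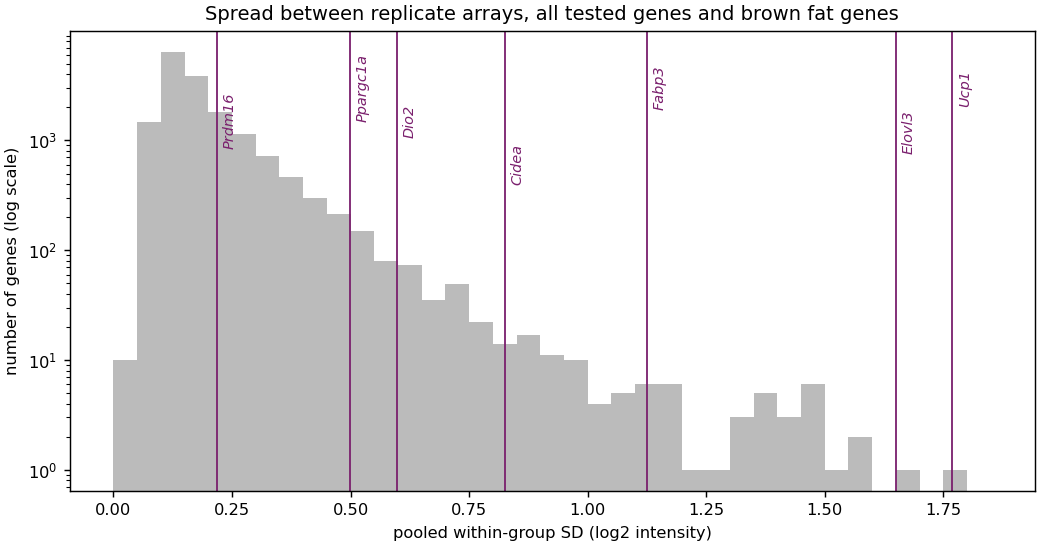
Number of genes (vertical, log scale) by pooled SD within groups (horizontal, log2 intensity) for 16865 tested genes, with vertical lines at the brown fat genes. Ucp1 at 1.77 and Elovl3 at 1.65 stand at the right end, and Prdm16 at 0.219 lies within the bulk.

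In many groups the dim or bright arrays were shared between genes. In KO P0, KO P7 and WT P15 no array was the lowest for more than 3, 4 and 4 members. How many of all tested genes were lowest or highest in the same arrays was not counted. WT P0 replicate 2 was the lowest of its group for 6 of the 7 members, WT P3 replicate 2 for 5, KO P3 replicate 1 for 6, WT P7 replicate 1 for 7, WT P10 replicate 3 for 6, KO P10 replicate 3 for 5 and KO P15 replicate 1 for 5. KO P3 replicate 3 was the highest of its group for all 7 members, and WT P3 replicate 1 and KO P10 replicate 1 for 6 each. Of these, KO P3 replicate 1 is muscle-rich and WT P7 replicate 1 and KO P10 replicate 3 are lymphocyte-rich, and the part of that in their low values was not tested. The white adipocyte score, the mean of 18 centred log2 values, was 0.25 and 0.30 in the KO P7 arrays with Ucp1 at 7.20 and 5.73, against -0.14 to 0.29 in the other KO P7 arrays. It was 0.13 in WT P0 replicate 2, against 0.31 to 0.55 in the other WT P0 arrays, and 0.33 in WT P3 replicate 2, against 0.08 and 0.29 in the other WT P3 arrays. The score of other brown identity and thermogenic genes was lower in both dim WT arrays, at -0.12 in WT P0 replicate 2, against 0.43 to 0.79 in the other WT P0 arrays, and at -0.04 in WT P3 replicate 2, against 0.14 and 0.50 in the others. The pan-epithelial score was 0.41 in WT P0 replicate 2, against -0.94 to -0.50 in the other WT P0 arrays. In WT P3 replicate 2 it was -0.14, between the -0.38 and 0.02 of the other WT P3 arrays. The secretory epithelium scores of both dim WT arrays lay within the range of the other arrays of their group. The part of tissue make-up in the low values was not tested.

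Deviations from the group means rose and fell together across arrays. Over the 21 pairs of members Pearson's r lay between 0.13 and 0.94, and 16 pairs passed a within-group permutation test with 100000 resamples after Benjamini-Hochberg adjustment over the pairs, two-sided. Spearman's rho passed in 19 pairs. Ucp1 and Elovl3 were the closest pair, with r = 0.94 and rho = 0.93 (permutation p = 1e-05, the smallest the resamples can give, adjusted p = 0.000105). Without the 2 arrays farthest from the median of Ucp1, r was 0.93.

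Ucp1 also moved with Cidea (r = 0.78, rho = 0.79), Dio2 (r = 0.71, rho = 0.67) and Ppargc1a (r = 0.66, rho = 0.67), with permutation p-values of 2e-05, 5e-05 and 0.00049 and adjusted p-values of 0.000105, 0.000175 and 0.00114. The 2 highest correlations beside that of Ucp1 with Elovl3 were those of Cidea with Ppargc1a (r = 0.81, permutation p = 0.00013, adjusted p = 0.00039) and of Cidea with Elovl3 (r = 0.81, permutation p = 2e-05, adjusted p = 0.000105). Fabp3 correlated with Ucp1 at r = 0.62 and rho = 0.42 (permutation p = 0.0099, adjusted p = 0.0155), which dropped to r = 0.40 without the 2 farthest arrays.

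For Prdm16 Pearson's r was 0.39 with Ucp1 and 0.36 with Elovl3 (permutation p = 0.0816 and adjusted p = 0.0902 for each), 0.21 with Dio2 and 0.13 with Fabp3, and of its pairs those with Ppargc1a (r = 0.55, permutation p = 0.0128, adjusted p = 0.0179) and with Cidea (r = 0.52, permutation p = 0.0272, adjusted p = 0.0357) passed by Pearson's r. Without the 7 arrays in doubt 11 of the 21 pairs passed, and r of Ucp1 with Elovl3 was 0.93. None of the 6 pairs with Fabp3 passed there by Pearson's r, where the pair with Dio2 came nearest (r = 0.62, permutation p = 0.0325, adjusted p = 0.0568).

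**Figure D3:**
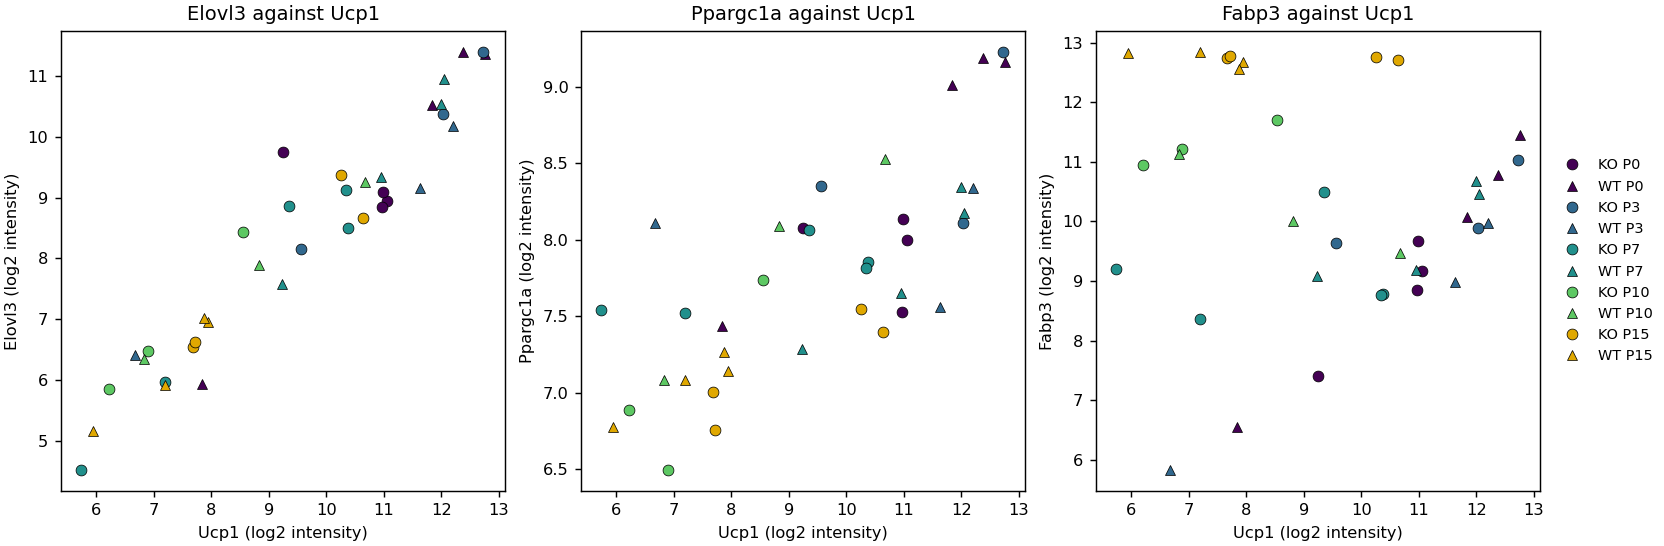
Log2 intensity of Elovl3, Ppargc1a and Fabp3 (vertical) against Ucp1 (horizontal), 1 point per array, with circles for KO, triangles for WT and colours for stage. Elovl3 rises with Ucp1 over the 37 arrays together (r = 0.96), although among the KO P0 arrays the lowest Ucp1 (9.24) goes with the highest Elovl3 (9.74), while the Fabp3 values of P15 arrays, at 12.55 to 12.84, leave the trend of the earlier stages.

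The members were set beside the marker list scores over the 30 arrays not in doubt, as deviations from group means, and 12 of 70 correlations passed the permutation test with adjustment over the 70. The members and lists were chosen with earlier results of these data known. Their p-values, and those of the member pairs, therefore give no independent support. The score of the other brown identity and thermogenic genes correlated with Cidea at r = 0.94, with Ppargc1a at 0.85, with Elovl3 at 0.82, with Ucp1 at 0.78 (adjusted p = 0.0014) and with Dio2 at 0.71. The fatty acid oxidation score correlated with Cidea at r = 0.92. The white adipocyte score passed with none of the members over these 30 arrays (r from 0.08 with Elovl3 and 0.13 with Ucp1 to 0.39 with Cidea, 0.40 with Prdm16 and 0.48 with Ppargc1a, the last with permutation p = 0.0312, adjusted p = 0.109). Over all 37 arrays it passed with Cidea (r = 0.53, permutation adjusted p = 0.029), Ppargc1a (0.49, 0.0399) and Prdm16 (0.45, 0.038). Without the muscle-rich arrays and the array labelled KO P15 replicate 3, 33 arrays remain. Over these it passed with Ppargc1a alone (r = 0.60, permutation adjusted p = 0.0117), and Cidea came next (0.57, 0.0527). Over the 30 arrays the pan-epithelial score with Ppargc1a at r = -0.75 (adjusted p = 0.0174). Over all 37 arrays 22 of the 70 relations passed.

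**Figure D4:**
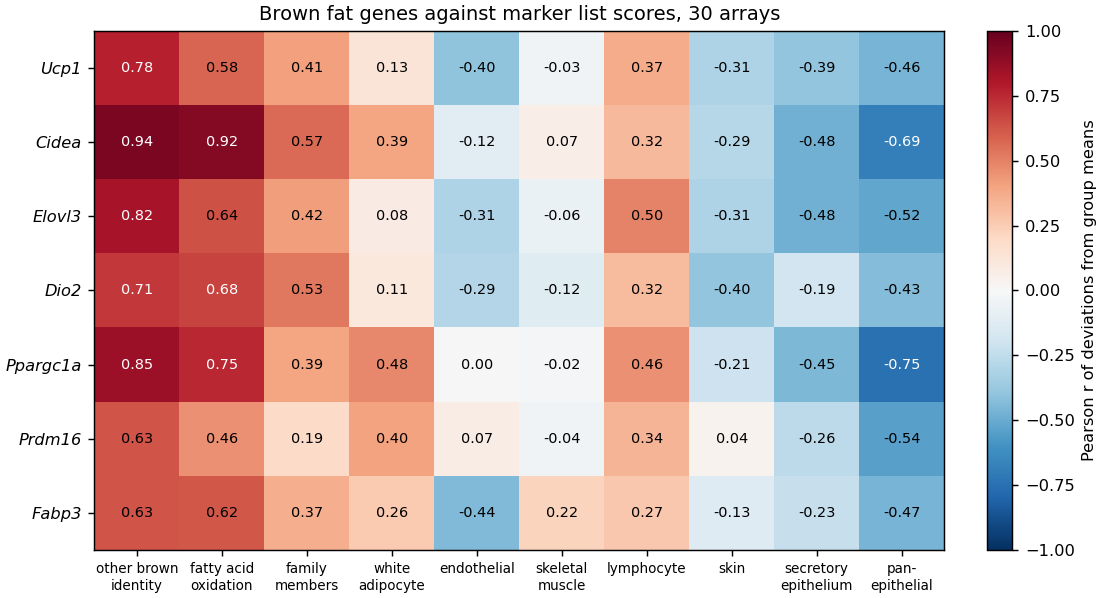
Pearson's r between deviations from group means of each brown fat gene (rows) and of each marker list score (columns) over 30 arrays, with colour from blue (-1) to red (1). The first column, the other brown identity and thermogenic genes, runs up to 0.94 for Cidea, and the white adipocyte column holds 0.13 for Ucp1 and 0.48 for Ppargc1a.

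Over all 37 arrays, with stage and genotype left in, the tested gene most like Ucp1 was Elovl3 (r = 0.96), and the most like Elovl3 was Ucp1. Outside the 7 members the genes most like Ucp1 were Cox7a1 (0.95), a cytochrome oxidase subunit of muscle and brown fat, Acot11 (0.90), a cold-inducible acyl-CoA thioesterase, Otop1 (0.89), a proton channel, Phospho1 (0.88), a phosphatase, and Letmd1 (0.86), a mitochondrial protein. Cox7a1, Acot11, Letmd1 and Phospho1 were also among the 5 most like Elovl3. Pank1, which makes the first step of coenzyme A synthesis, was the most like Cidea (0.90), and Slc27a2, a fatty acid transporter, the most like Dio2 (0.83). Clic5 (0.94) and Kcnk3 (0.94), a potassium channel of brown adipocytes, were the most like Ppargc1a. Krt79, a keratin, was the most like Prdm16 (0.91), and Acss1, a mitochondrial acetyl-CoA synthetase, the most like Fabp3 (0.88). The raw r of Fabp3 with Ucp1 was -0.09. These values describe the arrays, which share stage, genotype and tissue make-up, and carry no test.

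Which members differ between late pregnancy and the nulliparous gland was asked with P15 minus P0, averaged over genotypes. In these bulk samples fewer cells of a type and less RNA per cell cannot be told apart. Of the 7 members 5 fell and 1 rose (limma, Benjamini-Hochberg adjusted p over 16865 genes, threshold 0.05), against 56.4% of all tested genes called either way, 31% lower and 25.4% higher. The median difference was -0.92 over the 7 members and -0.03 over all tested genes. Below, the number of P15 arrays beyond every P0 array is given for members. The share of all tested genes that separate in this way was not counted, so such separation is not shown to be particular to them.

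Ucp1, the uncoupler, differed by -2.73 (95% interval -4.43 to -1.02, adjusted p = 0.00623), which is 6.62-fold lower at P15, and 4 of the 8 P15 arrays lay below every P0 array. Elovl3, the fatty acid elongase, was at 6.55, 8.66, 9.36 and 6.62 in KO P15 and 6.96, 5.93, 7.02 and 5.17 in WT P15, against 8.95, 8.85, 9.74 and 9.09 in KO P0 and 11.36, 5.93, 10.52 and 11.39 in WT P0. The stages overlapped, since the array labelled KO P15 replicate 3 at 9.36 and the WT P0 array at 5.93 both reached into the other stage. The difference was -2.44 (adjusted p = 0.00843), 5.44-fold lower.

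Dio2, the deiodinase, was at 6.76, 6.91, 7.65 and 6.91 in KO P15 and 6.90, 7.07, 7.11 and 6.98 in WT P15, against 7.13, 7.21, 7.70 and 8.30 in KO P0 and 9.23, 6.94, 8.56 and 8.56 in WT P0. Its difference was -0.92 (adjusted p = 0.00669). The P15 values were narrow apart from the array labelled KO P15 replicate 3 at 7.65. Cidea, the lipid droplet protein, was the member that did not pass. It was at 9.95, 10.68, 10.57 and 10.56 in KO P15 and 9.39, 9.92, 8.88 and 9.79 in WT P15, against 10.01, 9.58, 9.92 and 10.29 in KO P0 and 11.40, 8.62, 10.63 and 11.31 in WT P0. Its difference was -0.25 (95% interval -1.05 to 0.54, adjusted p = 0.609), with overlapping stages.

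Both regulators fell. Ppargc1a, the coactivator, was at 7.00, 7.40, 7.55 and 6.76 in KO P15 and 7.14, 7.09, 7.27 and 6.77 in WT P15, against 8.0, 7.53, 8.07 and 8.13 in KO P0 and 9.16, 7.44, 9.01 and 9.19 in WT P0. It differed by -1.19 (adjusted p = 7.47e-05), and 7 of 8 P15 arrays lay below every P0 array. Prdm16, the transcriptional regulator, was at 6.69, 6.99, 6.78 and 6.81 in KO P15 and 6.69, 6.65, 6.78 and 6.57 in WT P15, against 7.42, 7.32, 7.14 and 7.33 in KO P0 and 7.91, 7.64, 7.93 and 7.46 in WT P0. All 8 P15 arrays lay below all 8 P0 arrays, and the difference was -0.77 (95% interval -0.99 to -0.56, adjusted p = 2.84e-07), 1.71-fold lower.

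Fabp3, the fatty acid carrier, rose. It was at 12.75, 12.72, 12.76 and 12.77 in KO P15 and 12.68, 12.84, 12.55 and 12.83 in WT P15, against 9.16, 8.85, 7.41 and 9.67 in KO P0 and 11.46, 6.56, 10.08 and 10.78 in WT P0. All P15 arrays lay above all P0 arrays, by a mean difference of 3.49 (95% interval 2.41 to 4.58, adjusted p = 1.57e-06), 11.3-fold higher. At P3 it was at 9.64, 9.88 and 11.03 in KO arrays, against 9.97, 5.83 and 8.99 in WT arrays.

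At P7 Fabp3 was at 8.36, 9.20, 10.50, 8.78 and 8.77 in KO arrays, against 9.09, 10.47, 10.68 and 9.19 in WT arrays. At P10 it was at 11.70, 11.21 and 10.95 in KO arrays, against 9.47, 10.01 and 11.13 in WT arrays. The genotypes overlapped at every stage, and the spread closed by P15, where the SD was 0.02 in KO arrays and 0.14 in WT arrays (n = 4 each), against 0.97 in KO P0 and 2.18 in WT P0 (n = 4 each). The P15 values were the highest of this probe set, and the reason for their narrow spread was not tested. In order of group means Fabp3 was at 12.75 in KO P15, 12.73 in WT P15, 11.29 in KO P10 and 10.20 in WT P10, and the steps after WT P15 (1.44) and after KO P10 (1.08) were larger than the larger SD of the neighbours. Its second probe set, which ran from 8.53 to 12.05, also rose by 2.41 (limma adjusted p = 5.21e-13).

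**Figure D5:**
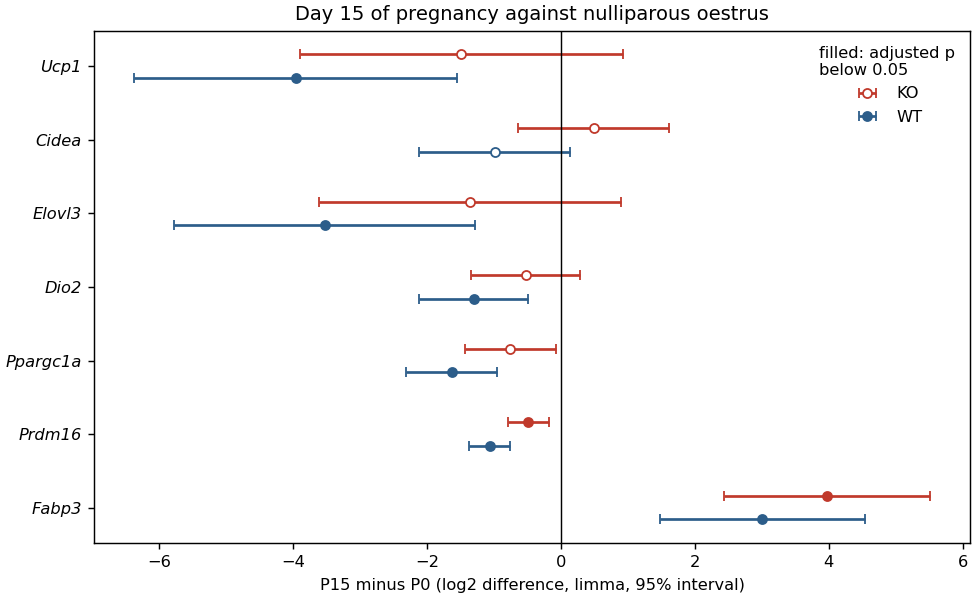
Log2 difference P15 minus P0 (horizontal) with 95% intervals for 7 brown fat genes (vertical), KO in red above WT in blue, filled where the limma adjusted p is below 0.05. Prdm16 lies below 0 and Fabp3 above 0 in both genotypes, and the WT values of Ucp1, Elovl3, Dio2 and Ppargc1a lie below 0.

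Within genotypes, KO arrays gave 2 of 7 members called at P15 against P0 (41.3% of all genes), and WT arrays 6 of 7 (48.8%). Ucp1 differed by -1.49 in KO mice (limma adjusted p = 0.338), or -1.89 without the array labelled KO P15 replicate 3 (adjusted p = 0.261), and by -3.96 in WT mice (adjusted p = 0.00628), and Ppargc1a by -0.76 (adjusted p = 0.0708) and -1.63 (adjusted p = 0.000168). Prdm16 fell in both, by 0.49 in KO mice and by 1.06 in WT mice (limma adjusted p = 0.00923 and 9.48e-07). Fabp3 rose in both, by 3.98 in KO mice and 3.01 in WT mice (limma adjusted p = 7.17e-05 and 0.00137), and by 1.96 in WT mice without WT P0 replicate 2 (adjusted p = 0.0121). A call in WT mice alone is no difference between genotypes, and the test of that difference over the stages is given with the genotype comparison.

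Averaged over the 4 pregnancy stages and over genotypes, 5 of 7 members were called against P0 (47.9% of all genes). Ucp1 fell by 1.69 (limma adjusted p = 0.0383), Dio2 by 0.62 (0.0261), Ppargc1a by 0.64 (0.00625) and Prdm16 by 0.49 (2.83e-05), and Fabp3 rose by 1.30 (0.0127). Elovl3 differed by -1.43 (adjusted p = 0.0592) and Cidea by -0.33 (adjusted p = 0.39). Without the arrays in doubt Prdm16 and Fabp3 kept their calls, while Ucp1 was at -1.20 (adjusted p = 0.203), Dio2 at -0.50 (0.0873) and Ppargc1a at -0.46 (0.0679). Leaving out WT P0 replicate 2 ended the call of Fabp3 (0.78, adjusted p = 0.0704), and each of 9 single arrays ended that of Ucp1, of which WT P0 replicate 1 moved it farthest (-1.43, adjusted p = 0.104). The call of Dio2 ended without any one of WT P0 replicates 1, 3 and 4 or KO P0 replicate 4 (adjusted p from 0.0563 to 0.104).

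At single stages before P15 few members passed. In WT mice Prdm16 fell at P3 by 0.50 (limma adjusted p = 0.0296, background 18.1% of genes) and at P7 by 0.66 (adjusted p = 0.00185, background 29.3%), and Dio2 fell at P10 by 1.22 (adjusted p = 0.0425, background 21.4%). In KO mice none passed at P3 or P7 by limma, also at an unadjusted p under 0.05, against 18.8% and 16.2% of all genes called. The WT call at P7 held in every fit that leaves out 1 array, while that at P3 ended without WT P3 replicate 3 (-0.33, adjusted p = 0.269) or WT P0 replicate 1 or 3 (0.0853 and 0.0928), and that of Dio2 at P10 without any one of 6 arrays (adjusted p from 0.078 to 0.147). At P10 KO mice gave 3 of 7 (background 30.7%), with Ucp1 at -3.35 (adjusted p = 0.0453), Prdm16 at -0.51 (adjusted p = 0.0171) and Fabp3 at 2.51 (adjusted p = 0.0184). The lymphocyte-rich arrays make up 2 of the 3 KO P10 arrays, and without the arrays in doubt, which leaves 1 KO P10 array, these were -2.02 (adjusted p = 0.647), -0.28 (0.594) and 2.93 (0.213). Leaving out KO P10 replicate 2 alone also ended all 3 calls (adjusted p = 0.132, 0.068 and 0.0546). The comparisons of a genotype share its P0 arrays.

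Other genes of the pathway were counted at P15 against P0. Of 31 other brown identity and thermogenic genes 19 fell and 2 rose, with a median difference of -0.77. Ebf2, a brown fat transcription factor, fell by 1.39, Cox8b, a cytochrome oxidase subunit, by 2.55, Cited1, a transcriptional coregulator, by 1.66, and Pparg, the master regulator of adipocytes, by 0.91. Esrrg (0.45) and Esrra (0.25), receptors that drive mitochondrial genes, rose. All 19 tested genes of fatty acid oxidation fell, with a median of -0.73, among them Slc27a1, a fatty acid transporter (-0.87), Eci1, an isomerase of the pathway (-1.0), Etfb, an electron carrier (-0.70), and Pdk4, the kinase that shuts off glucose oxidation (-1.77). Cpt1a, the liver form of the enzyme that Cpt1b encodes in muscle and brown fat, differed by -0.70.

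Among 13 relatives of the members 6 fell and 2 rose. Elovl7 (1.94) and Elovl1 (0.80), elongases related to Elovl3, rose, and Cidec, the white fat relative of Cidea, fell by 1.28 and Mecom, the close relative of Prdm16, by 0.73. Cidec is also among the white adipocyte genes. Of the markers of other cells, 15 of 18 white adipocyte genes fell (median -0.77), 15 of 15 secretory epithelium genes rose (median 2.01), 10 of 17 pan-epithelial genes rose and 2 fell, and 8 of 10 endothelial genes fell. Of 26 skeletal muscle genes 4 fell, and of 10 lymphocyte genes 1 rose. Without the arrays in doubt 12 muscle genes fell and 1 rose, and 2 lymphocyte genes rose and 1 fell, while 20 brown identity and thermogenic and 18 fatty acid oxidation genes fell.

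The white adipocyte score averaged -0.42 in KO P15 and -0.70 in WT P15, against 0.18 in KO P0 and 0.35 in WT P0. The secretory score averaged 1.72 in KO P15 and 1.59 in WT P15, against -0.68 in KO P0 and -0.86 in WT P0. With the white adipocyte score as a covariate, P15 minus P0 was -1.31 for Ucp1 (limma adjusted p = 0.577), -1.33 for Elovl3 (0.542), -0.63 for Dio2 (0.414), -0.22 for Ppargc1a (0.723) and -0.38 for Prdm16 (0.117), so that Fabp3 alone of the 7 kept its call (4.36, adjusted p = 0.00128). Cidea then turned to 1.497 (adjusted p = 0.0726). The score itself differed between P15 and P0 by more than its spread, with an SD of 0.15 to 0.18 in these 4 groups. The fit therefore cannot tell the stage from the score, and a lost call does not show what the fall came from.

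Whether loss of PTP1B changes these genes was asked with KO minus WT, averaged over the 5 stages. None of the 7 members passed (limma, adjusted over 16865 genes), against 2.43% of all tested genes, and 1 did at an unadjusted p under 0.05. The differences were -0.31 for Ucp1 (95% interval -1.45 to 0.83, adjusted p = 0.841), -0.17 for Elovl3 (-1.23 to 0.89), -0.27 for Cidea (-0.80 to 0.26), -0.23 for Dio2 (-0.61 to 0.16), -0.21 for Ppargc1a (-0.53 to 0.11) and 0.27 for Fabp3 (-0.46 to 0.99). Prdm16 was at -0.16 (-0.31 to -0.02, limma adjusted p = 0.216) and was the member under 0.05 unadjusted. The interval of Ucp1 reaches from a 2.73-fold lower to a 1.77-fold higher level in KO glands, so a difference of either sign within that range remains possible. None of the 31 other brown identity and thermogenic genes (3 at an unadjusted p under 0.05) and none of the 19 fatty acid oxidation genes (0 unadjusted) passed in limma for this mean over stages. A fit with array weights did call members for this mean, as counted in the closing section.

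At single stages the other lists did hold calls, with opposite signs. At P10 4 of the 31 brown identity and thermogenic genes (Cited1, Ebf2, Esrra and Pparg) and 2 of the 19 fatty acid oxidation genes (Acads and Eci1) were lower in KO glands. Of all tested genes 9.13% were called lower there. Without the arrays in doubt, which leaves 1 KO P10 array, none of either list passed (limma adjusted p = 1.0 for all 6). At P15, where 11.1% of all tested genes were called either way, Cox8b alone of the 31 was higher in KO glands, by 2.17 (limma adjusted p = 0.00126). So were 4 of the 19 fatty acid oxidation genes, Acadl (0.94), Acadvl (0.83), Eci1 (0.62) and Hadha (0.52), which take part in beta-oxidation. All 19 differences of that list were positive at P15 and none at P10. These P15 calls also held without the arrays in doubt. Beside them, 4 of 18 white adipocyte genes and 3 of 13 relatives of the members were higher in KO glands at P15. Without the arrays in doubt these counts were 5 and 3. An F test across the stages called 8 of 19 fatty acid oxidation genes and 2 of 31 brown identity and thermogenic genes, against 18% of all tested genes, and 1 of each list without the arrays in doubt (Acadl and Cox8b).

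Stage by stage 1 of 35 member comparisons passed. Prdm16 was at 7.03, 6.74 and 6.61 in KO P10 arrays, against 7.76, 7.27 and 6.93 in WT P10 arrays, which overlap. Its difference was -0.53 (limma adjusted p = 0.0347), where 17.2% of all genes were called either way and 9.13% lower. Beside it, all 10 lymphocyte genes were higher and 6 of 10 endothelial and 5 of 18 white adipocyte genes lower in KO P10 arrays, with lymphocyte scores of 2.67 in KO P10 and -0.24 in WT P10. The call ended without WT P10 replicate 1 (-0.31, adjusted p = 0.286), without any of WT P10 replicate 2, KO P10 replicate 2 or KO P10 replicate 3 (adjusted p from 0.0606 to 0.175), and without the arrays in doubt (-0.29, adjusted p = 1.0).

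Ucp1 differed by -0.64 at P0 and 1.27 at P3, by -2.46 and -1.56 at P7 and P10, and by 1.83 at P15, with limma adjusted p-values from 0.382 to 1.0. Leaving out 1 array at a time gave -1.76 (without WT P0 replicate 2) to -0.12 (without WT P0 replicate 1) at P0, and -0.48 (without WT P3 replicate 2) to 2.28 (without WT P3 replicate 1) at P3. It gave -3.07 to -1.74 at P7, -2.53 (without WT P10 replicate 3) to -0.61 (without WT P10 replicate 1) at P10, and 1.31 to 2.30 at P15, where the value without the array labelled KO P15 replicate 3 was 1.43. The share of all genes called was 1.7% in nulliparous glands, 0.119% at P3, 0.00593% at P7 and 11.1% at P15, and no member was among them. In 2 of the 35 comparisons the genotypes did not overlap, against 12.6% of the comparisons of all tested genes over the 5 stages. Of the 2, 1 was at P15, where the share of all tested genes was 19.1%, and 1 at P0, where it was 8.04%. No excess over all genes is claimed. Cidea was higher in every array labelled KO P15 than in any WT P15 array, by 0.94 (limma adjusted p = 0.320). The array labelled KO P15 replicate 3, whose Ptpn1 goes against its label, was at 10.57, and without it the lowest KO P15 array (9.95) still lay above the highest WT P15 array (9.92). Prdm16 was lower in every KO P0 array than in any WT P0 array, with a difference of -0.43 (limma adjusted p = 0.120).

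The F test in limma for a genotype difference that is not the same at each stage called none of the 7 members, against 18% of all tested genes, and 1 at an unadjusted p under 0.05. Prdm16 came nearest (adjusted p = 0.0735), and Ucp1 was at an adjusted p of 0.197. A fit with array weights did call members in the F test, as counted in the closing section. The second probe sets of Ppargc1a and Fabp3 passed the same test (adjusted p = 0.0162 and 0.0272), although over the 37 arrays they followed the probe sets used at r = 0.96 and 0.87. For deviations from group means r was 0.95 and 0.73. On the second probe set Ppargc1a differed by -0.97 between KO and WT at P10 (limma adjusted p = 0.0462), against -0.86 (adjusted p = 0.125) on the first.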

How the data were processed

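The deposited table gives 1 log2 intensity for each of 34760 probe sets on each array, made by the authors with affy per the submitters' processing notes. How it was normalised is not given in the sources used here. Platform annotation gives 21640 probe sets a single gene symbol. Genes above 4.96, the table's percentile 25, in 3 or more arrays were tested. limma 3.58.1 under R 4.3.3 took all 37 arrays with a mean for each group, two-sided tests and Benjamini-Hochberg adjustment over 16865 genes. Correlations used deviations from group means, permuted within groups 100000 times (scipy 1.17.1), over 21 pairs because Cpt1b has no value. List scores are means of centred log2 values. Arrays were in doubt where a muscle or lymphocyte score lay over 1 above the median, or Ptpn1 went against the label. The fit was tested on simulated data. The members and lists were chosen with earlier results of these data known. Named genes are the members, Ptpn1, up to 5 genes most like each member and up to 4 called genes per list by smallest p. Esrrg, Esrra, Cpt1a and the top of the spread ranking were chosen after their values were seen, as were the correlations and list counts without the arrays in doubt, the second probe sets and the list genes named in the genotype comparison at single stages. Other alternatives changed the filter, the normalisation, the variance prior, array weights, covariates, a replicate block and the arrays used.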

Additional observations from a re-analysis of the deposited data

Results flagged for a closer look

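In groups of 4 or 5 arrays, 1 array was set apart from the rest of its group, by the gap to its nearest neighbour as a share of the group's range, in 5 of the 42 gene and group combinations tested, and chance alone flags about 1 in 20. The genes varied together, so the combinations are not independent and no excess over chance is claimed. Ucp1 was at 9.24 in KO P0 replicate 3, below the other KO P0 arrays. Elovl3 was at 5.93 and Ppargc1a at 7.44 in WT P0 replicate 2, both below the other WT P0 arrays. Cidea was at 9.95 in KO P15 replicate 1, below the other KO P15 arrays. Dio2 was at 7.65 in the array labelled KO P15 replicate 3, above the other KO P15 arrays. The shares for Cidea (0.8309) and Dio2 (0.8300) were barely over the limit of 0.829.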

How the results depend on the processing

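Of the alternatives, none changed a call of P15 minus P0 averaged over genotypes except the white adipocyte score as a covariate, and 6 members were called in each of the 37 fits that leave out 1 array. That covariate left 1 of 6 members called at P15, 7 of 14 calls within genotypes, 2 of 5 for the pregnancy mean and 0 of 1 between genotypes at single stages, and it turned Cidea at P15 minus P0 to 1.497 over genotypes and to 1.24 in WT mice. With array weights 2 members were called between genotypes over stages, 5 at single stages, 6 in the F test and 28 within genotypes. The share of all genes called with array weights is not given here, so these counts stand without a background. Without the 7 arrays in doubt 0 were called between genotypes at single stages and 2 for the pregnancy mean, and Cidea (0.11) and Elovl3 (0.11) turned sign between genotypes. Without the muscle-rich arrays the pregnancy mean gave 3, the F test 1 and Elovl3 was at 0.045, and the F test gave 1 with centring on array medians and 1 with the muscle score as covariate. Leaving out 1 array at a time gave 0 to 0 calls between genotypes over stages, 0 to 4 at single stages, 0 to 2 in the F test, 11 to 25 within genotypes and 3 to 6 for the pregnancy mean, and moved Elovl3 between genotypes from -0.43 to 0.012 and Ucp1 at P3 from -0.48 to 2.28. The cause of these shifts was not tested. Between same-numbered KO and WT arrays of a stage, r of the deviations ran from -0.52 to 0.38 and passed 0.1 in 9 of 18 pairs. Arrays of unlike number were not compared, so this cannot show whether replicate numbers pair the samples. With the replicate block, Dio2 in WT P10 (adjusted p = 0.0544) and Ucp1 in KO P10 (adjusted p = 0.0606) lost their calls, 12 calls within genotypes were left, and no other printed call changed. The number of arrays, 3 to 5 per group, limits the precision.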
